A study of Homo sapiens with 12 samples.

Results

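The AP-1 transcription factor genes examined here were FOS, FOSB, FOSL1, FOSL2, JUN, JUNB, JUND and ATF3, 8 of the 35238 genes in the expression table. They were chosen by name and not by any measured value, though with earlier results of these data known. Expression was measured by bulk RNA sequencing of poly-A RNA from HK-2 cells, an established line from human kidney proximal tubule. The cells were transfected with 10 nM of a scrambled siRNA (SCR) or of an siRNA against POLR2A (siB), and at the same time received 25 µM aristolochic acid I (AAI), a plant nephrotoxin that damages DNA, or the same volume of its solvent DMSO. RNA was collected after 24 hours from 3 replicates of each of the 4 groups, SCR DMSO, SCR AAI, siB DMSO and siB AAI, 12 libraries in all. All 4 groups were transfected, so there was no group without siRNA, and the siRNA against POLR2A lowers the RNA of the largest RNA polymerase II subunit without removing it. The labels do not say whether replicates were separate cultures, so the p-values measure the spread between these libraries, which may in part be technical.

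AP-1 is a dimer of basic leucine zipper proteins. FOS family proteins (FOS, FOSB, FOSL1 and FOSL2) cannot pair with each other and need a JUN family partner (JUN, JUNB or JUND), while JUN proteins can also pair among themselves. ATF3 is a related stress-induced factor that pairs with JUN proteins or with itself, and often represses its targets. Many of these genes are short and belong to the early response genes, which are switched on within minutes by growth factors, stress or DNA damage and make short-lived RNA that carries AU-rich elements. JUND differs from its relatives in being made steadily in resting cells. In the injured kidney tubule, AP-1 genes are known among the first responders of the epithelium.

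Depth was 15844015 to 42805294 reads per library, and the lowest read count of any AP-1 gene in any library was 52, for FOS. A level of 0 reads would have allowed up to 3 reads, 0.0701 to 0.189 CPM (read counts scaled to a library total of 1000000), and such limits cover counting error only. The knockdown target, POLR2A, averaged 284 ± 24.2 CPM (SD, n = 3) for SCR DMSO against 139.7 ± 2.61 CPM for siB DMSO. With AAI it averaged 707 ± 30.1 CPM for SCR against 232 ± 29.5 CPM for siB, so POLR2A was higher in siB AAI than in siB DMSO. SCR DMSO replicate 2 stood apart from its group, at -62.2 on the second principal component (18.3% of variance) against 57.8 and 20.03. Of 16 renal epithelial markers, 10 had a median of at least 1 CPM, among them PAX8, KRT8 and KRT18. Markers of mature proximal tubule were mixed, with GGT1 (96.0 to 184 CPM), DPP4 (28.3 to 302 CPM) and SLC5A2 (3.13 to 20.1 CPM) measured in every library, LRP2 at 0.0902 to 1.2 CPM, and AQP1, SLC22A6 and SLC22A8 at or near 0. Of 6 leukocyte markers, CD3E and TYROBP were at 0 in every library and PTPRC was at 0.223 to 2.91 CPM, while CD68, a lysosomal protein, was at 58.7 to 97.8 CPM and made up most of their summed level of 60.1 to 98.2 CPM. The summed level of 7 fibroblast markers was 64.2 to 85.4 CPM in DMSO and 41.7 to 55.0 CPM in AAI, and that of 5 endothelial markers 1.54 to 3.74 CPM in the other groups and 5.79 to 8.52 CPM in siB AAI, with KDR at or near 0. Their part in the AP-1 results was not tested. In bulk RNA, fewer cells that express a gene and less RNA per cell cannot be told apart.

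JUN (chromosome 1, 58776845 to 58784048, minus strand), JUNB (chromosome 19, 12791486 to 12793315, plus strand) and JUND (chromosome 19, 18279694 to 18281622, minus strand) have a canonical transcript of 1 exon, as do 5.62% of 19701 protein-coding genes in GENCODE on hg38. FOS (chromosome 14, 75278826 to 75282230, plus strand), FOSB (chromosome 19, 45467995 to 45475179, plus strand), FOSL1 (chromosome 11, 65892049 to 65900573, minus strand) and FOSL2 (chromosome 2, 28392448 to 28417317, plus strand) have 4 exons each. ATF3 (chromosome 1, 212565334 to 212620777, plus strand) also has 4 and, at 55.4 kb, the longest span. FOSB lies within the span of ERCC1 on the other strand, with no shared exon bases, and JUNB within the span of HOOK2 on the other strand, with 259 shared exon bases. Whether reads were counted by strand was not stated, so JUNB reads cannot be told apart from HOOK2 reads in those bases. HOOK2 was at 14.95 to 35.8 CPM.

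The 250 bases before the start of 7 of the 8 genes were matched in RefSeq (GRCh38.p14) and searched on both strands for TGANTCA (the TRE, the usual AP-1 site), TGACGTCA (the CRE, bound by CREB, ATF and JUN dimers), the CArG box (bound by SRF) and TATAAA. The 4 windows below belong to the genes whose levels differed most between groups, with matches in capitals. They are chr19:18281623-18281872 (minus strand) for JUND, chr14:75278578-75278827 (plus strand) for FOS, chr19:45467746-45467995 (plus strand) for FOSB and chr1:212565157-212565406 (plus strand) for the upstream of the 2 ATF3 starts.
JUND: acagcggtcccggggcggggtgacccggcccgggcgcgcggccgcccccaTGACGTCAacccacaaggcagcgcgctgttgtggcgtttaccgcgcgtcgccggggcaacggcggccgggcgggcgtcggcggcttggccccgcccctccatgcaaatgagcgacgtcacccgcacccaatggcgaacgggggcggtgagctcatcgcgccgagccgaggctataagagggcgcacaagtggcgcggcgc
FOS: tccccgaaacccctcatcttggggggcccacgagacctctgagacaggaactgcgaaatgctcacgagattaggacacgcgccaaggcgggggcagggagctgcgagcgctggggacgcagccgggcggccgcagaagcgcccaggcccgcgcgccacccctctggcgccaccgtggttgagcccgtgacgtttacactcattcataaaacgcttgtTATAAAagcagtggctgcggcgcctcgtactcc
FOSB: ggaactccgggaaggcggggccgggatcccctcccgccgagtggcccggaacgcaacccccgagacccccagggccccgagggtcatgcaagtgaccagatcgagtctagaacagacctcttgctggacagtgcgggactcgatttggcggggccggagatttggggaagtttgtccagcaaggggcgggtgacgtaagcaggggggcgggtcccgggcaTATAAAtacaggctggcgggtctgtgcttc
ATF3: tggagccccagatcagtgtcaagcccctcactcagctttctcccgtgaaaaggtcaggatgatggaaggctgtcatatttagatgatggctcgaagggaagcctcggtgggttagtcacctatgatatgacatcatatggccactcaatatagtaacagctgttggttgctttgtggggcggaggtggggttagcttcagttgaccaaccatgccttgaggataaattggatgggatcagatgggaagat
The JUND window held the CRE, 200 to 193 bases before the start, and 1.65% of 35116 windows of this length held one. TATAAA lay at 33 to 28 bases before the start in FOS, 30 to 25 in FOSB and 31 to 26 in JUNB, and at 230 to 225 bases before the downstream start of ATF3, and 10.7% of windows held it. The TRE (6.57% of windows) and the CArG box (1.16%) had no match in the 8 windows searched. Only these exact patterns within 250 bases were searched, so variant sites and sites further upstream were not covered. These letters are a description of the sequence and not evidence of binding.

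The pentamer ATTTA, the core of AU-rich elements, occurred in the 3′ UTR of all 8 canonical transcripts, as in 71.7% of 13621 expressed genes, where the median was 2 copies. It occurred 5 times in FOS, 9 times in FOSL2, 3 times each in FOSB, JUN and ATF3, 2 times in JUNB and 1 time each in FOSL1 and JUND. Per kilobase, FOS (6.18) lay at the 95.4th percentile of those genes and JUND (1.33) at the 44.2nd. The longer element TTATTTA followed by A or T at 2 positions, present in 21.3% of genes, was found only in FOS and FOSL2 among the 8. The 30 bases around it (capitals) in FOS are at chr14:75282060-75282089, on the plus strand of hg38.
FOS 3′ UTR: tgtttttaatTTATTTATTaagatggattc
JUND stood apart in base composition, with a transcript of 69.9% G and C (99.5th percentile).

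To order the genes by level, CPM was divided by the length of the longest annotated transcript. In SCR DMSO, JUND was highest at 133 ± 40.7 CPM per kb (SD, n = 3), followed by JUN (93.2 ± 31.0), FOSL2 (55.1 ± 13.8), FOSL1 (43.7 ± 21.9), JUNB (35.2 ± 16.8), ATF3 (11.4 ± 0.625), FOSB (2.25 ± 0.812) and FOS (1.36 ± 0.220). In this group, neighbours in the order overlapped in their library values except JUNB with ATF3 and ATF3 with FOSB. siB DMSO gave the same order except that FOSL1 came before FOSL2, from JUND (113 ± 14.1) and JUN (72.5 ± 4.29) to FOSB (4.08 ± 0.508) and FOS (1.67 ± 0.308). The SD was smaller there than in SCR DMSO for all genes but FOS and ATF3. The cells without toxin thus held mostly JUND, JUN, FOSL2 and FOSL1 RNA, and little FOS or FOSB.

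The order was different in AAI. In SCR AAI, JUN (92.4 ± 13.8 CPM per kb), FOSL1 (81.6 ± 37.7) and JUND (75.6 ± 23.2) overlapped at the top. In siB AAI, FOSL1 (71.5 ± 20.03), JUN (55.0 ± 2.38) and ATF3 (48.6 ± 8.74) led, and JUND (34.3 ± 6.78) came after JUNB (41.4 ± 0.847). Library values of neighbours overlapped from FOSL1 down to FOSL2 (32.1 ± 2.85). FOSB (14.99 ± 1.92) and FOS (5.78 ± 0.690) stayed the lowest. The place of ATF3 depended on the length used, and with the union of its annotated exons (25.5 CPM per kb) it came below JUND in siB AAI.

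**Figure D1:**
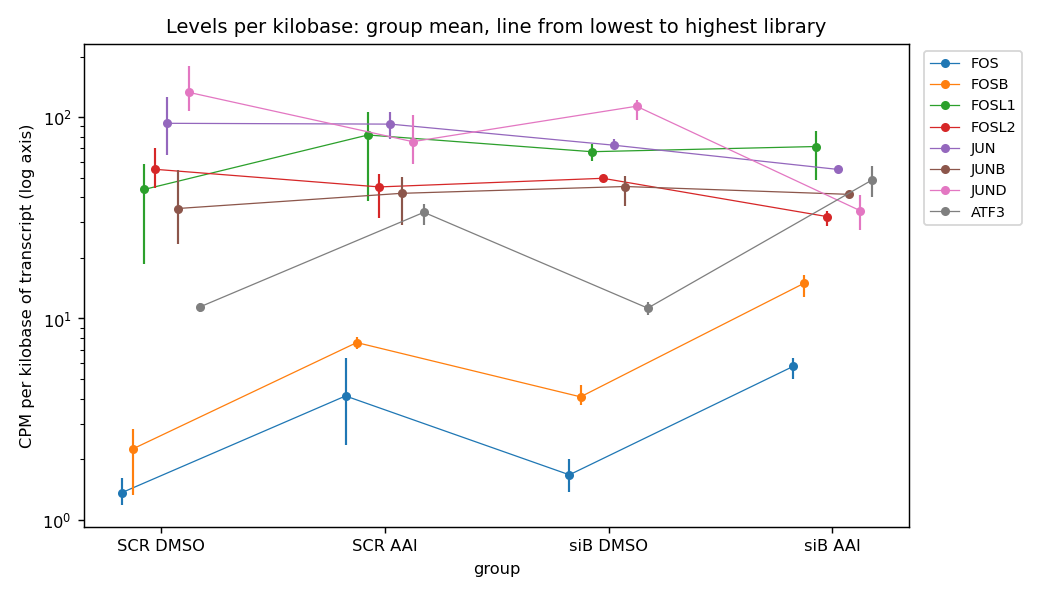
Levels of the 8 genes in CPM per kilobase of the longest transcript (log axis) in the 4 groups, with points for group means and vertical lines from the lowest to the highest of 3 libraries. JUND is the highest gene in both DMSO groups and below FOSL1, JUN, ATF3 and JUNB in siB AAI, and FOS is the lowest throughout.

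The first question was how AP-1 genes responded to AAI in cells with the scrambled siRNA. In SCR cells, ATF3 and FOSB rose, to 2.95 and 3.37 times their DMSO means, while no JUN gene was called. Of the 8 genes, 2 were called raised and 0 lowered, where a call asked for 2-fold or more on the log2(CPM + 1) scale with an adjusted p below 0.05. That scale understates changes of low genes such as FOS. Over all 14228 genes tested, 7.73% were called raised and 2.73% lowered, 1100 and 389 genes. That balance depended on the scaling, with 925 raised and 698 lowered under median-ratio size factors, and on the libraries. Without SCR AAI replicate 1, 2 or 3 it was 794 and 163, 787 and 122, or 757 and 118. It was 780 and 193 without SCR DMSO replicate 3, and 1235 and 749 without SCR DMSO replicate 2. The median change of the 8 genes was 0.61, against 0.18 over all genes. It was 0.29, against 0.26, without SCR DMSO replicate 1, and 0.91, against 0.064, without SCR DMSO replicate 2. With the counts rescaled by median-ratio size factors, the median of all genes moved by -0.19 in this comparison and by -0.11 for AAI in siB cells, and the 8 genes moved with it. JUN then turned from 0.03 to -0.17 in SCR cells.

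ATF3 measured 22.6, 24.3 and 25.2 CPM in the SCR DMSO libraries, against 77.6, 60.9 and 73.9 CPM after AAI. The groups were far apart relative to their spread, and the log2 change was 1.52 (SE 0.21, adjusted p = 0.0032). FOSB, a FOS protein with a strong activation domain, was at 4.99, 10.7 and 9.82 CPM in SCR DMSO, against 26.6, 30.6 and 28.8 CPM after AAI. Each AAI library was higher than any DMSO library, with a log2 change of 1.70 (SE 0.31, adjusted p = 0.011). The FOSB call was lost without SCR AAI replicate 2 or 3 (adjusted p = 0.062 each, log2 changes 1.65 and 1.70). ERCC1, the gene around FOSB, averaged 36.8 ± 11.3 CPM in DMSO and 22.8 ± 0.680 CPM with AAI.

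FOS, the founding early response gene of the family, was at 2.50, 3.39 and 2.72 CPM in SCR DMSO, against 13.4, 4.94 and 7.71 CPM after AAI. The groups did not overlap, but the AAI libraries spread 2.71-fold among themselves. The log2 change was 1.23 (SE 0.34), with an adjusted p of 0.055. Same-numbered SCR libraries deviated together across genes, and with the replicate number as a block the FOS change was called (adjusted p = 0.035). Leaving out SCR AAI replicate 2 (1.54, adjusted p = 0.045) or SCR DMSO replicate 2 (1.33, adjusted p = 0.017) also brought the call.

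FOSL1, which encodes FRA1, was at 31.6, 91.9 and 99.8 CPM in SCR DMSO, against 64.9, 180.04 and 172 CPM after AAI. Replicate 1 was low in both groups, and without pairing the log2 change of 0.92 (SE 0.53) did not pass (adjusted p = 0.32). It was 0.39 without SCR DMSO replicate 1 and 1.39 without SCR AAI replicate 1. Between same-numbered libraries the ratio of AAI to DMSO was 2.06, 1.96 and 1.72, and with the block the adjusted p was 0.012, at a change still under the fold limit. FOSL2, which encodes FRA2 and was the most abundant FOS gene in CPM, was at 336, 474 and 299 CPM in SCR DMSO, against 211, 345 and 349.8 CPM after AAI. These values overlapped, and the change was -0.30 (SE 0.28, adjusted p = 0.54).

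Among the JUN genes, JUND was at 216, 347 and 206 CPM in SCR DMSO, against 113, 197 and 128 CPM after AAI. All AAI values lay below all DMSO values, but the change of -0.81 (SE 0.30) did not pass (adjusted p = 0.13). The ratio between same-numbered libraries was 0.522, 0.568 and 0.621, and with the block the adjusted p was 0.019, under the fold limit. JUN, the strongest activator of the JUN proteins, was at 287, 412 and 212 CPM and then 255, 302 and 345 CPM, and its change of 0.03 had an interval from -0.61 to 0.67. JUNB, which often counteracts JUN, was at 50.9, 99.5 and 42.7 CPM and then 92.2, 84.0 and 53.6 CPM, and its change of 0.31 had an interval from -0.53 to 1.14. For JUN and JUNB the groups overlapped and these wide intervals leave a change of either sign possible. Of the 8 genes, 4 (FOS, FOSB, JUND and ATF3) did not overlap between the groups, nor did 33.8% of all genes tested.

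**Figure D2:**
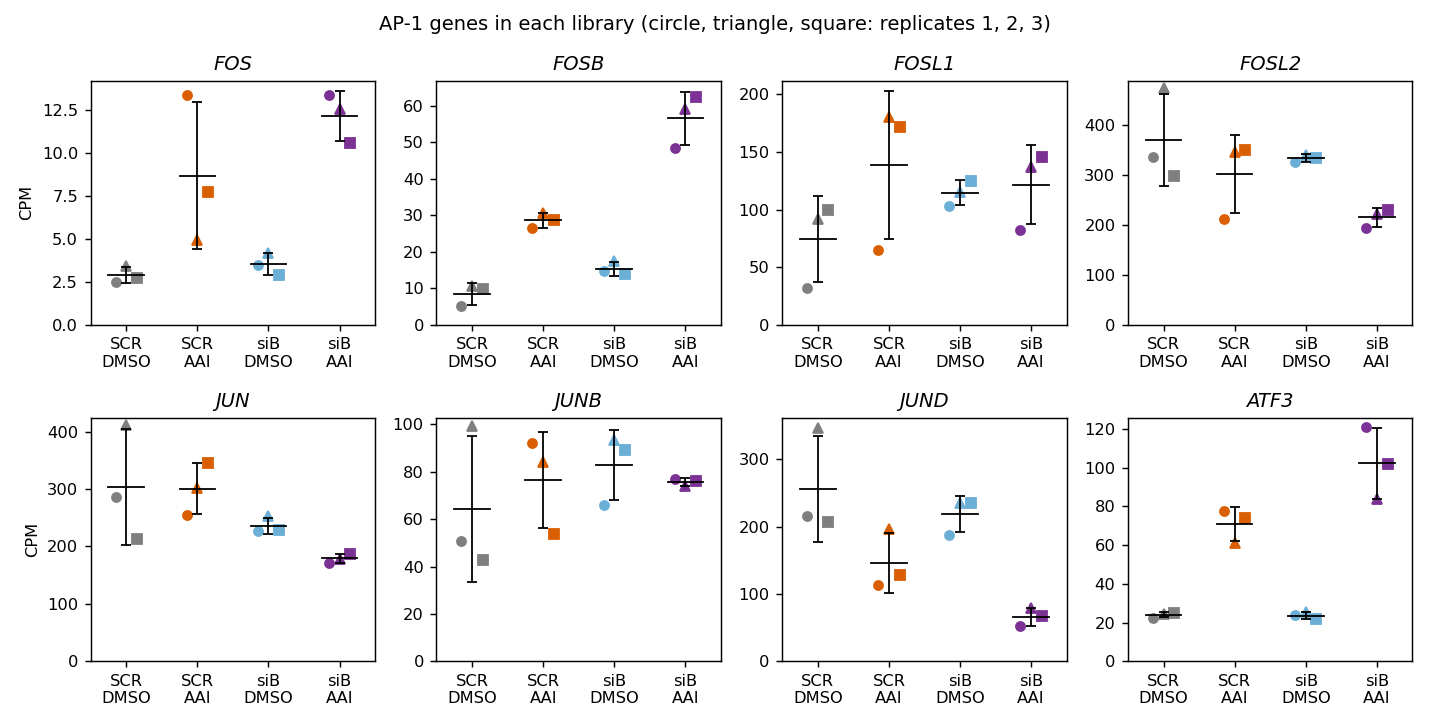
CPM of each gene in the 12 libraries (circle, triangle and square for replicates 1, 2 and 3), with the group mean as a horizontal bar and the SD as an error bar. FOSB, FOS and ATF3 are higher in AAI, JUND is lower, and SCR DMSO replicate 2 is the highest of its group for 6 of the 8 genes.

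The second question was the AAI response in cells with POLR2A knocked down. Here, ATF3, FOSB and FOS rose and JUND fell, by 2.92-fold to 4.14-fold on the log2(CPM + 1) scale. The replicate spread was small, and 3 genes were called raised and 1 lowered, against 13.9% and 5.79% of all 14928 genes tested. FOSL2 and JUN also fell, by less than 2-fold, so 6 of the 8 genes had an adjusted p under 0.05, as did 52.2% of all genes. The same 6 genes had no overlap between the groups, against 60.8% of all genes. The median change of the 8 was -0.03, against 0.10 over all genes, since the genes moved in both directions.

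ATF3 was at 23.9, 25.3 and 21.9 CPM in siB DMSO, against 121, 84.0 and 102 CPM after AAI. Every AAI library was more than 3-fold above the DMSO libraries, and the log2 change was 2.05 (SE 0.15, adjusted p = 7.7e-06). FOSB was at 14.6, 17.6 and 14.0 CPM in siB DMSO, against 48.4, 59.0 and 62.3 CPM after AAI, a change of 1.81 (SE 0.15, adjusted p = 1.6e-05). FOS was at 3.46, 4.19 and 2.90 CPM and then 13.4, 12.6 and 10.6 CPM, a change of 1.55 (SE 0.18, adjusted p = 0.00011). In contrast to SCR cells, the 3 FOS values in AAI lay close together. ERCC1 averaged 32.0 ± 3.54 CPM without and 22.4 ± 3.55 CPM with AAI, opposite in direction to FOSB.

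JUND was at 187, 234 and 234 CPM in siB DMSO, against 52.8, 79.0 and 66.6 CPM after AAI. The highest AAI library was below the lowest DMSO library by more than 2-fold, and the log2 change was -1.72 (SE 0.16, adjusted p = 3.0e-05). FOSL2 was at 326, 341 and 334 CPM and then 194, 222 and 230.4 CPM, a change of -0.63 (SE 0.10, adjusted p = 0.00069). JUN was at 228, 252 and 229 CPM and then 172, 179 and 187 CPM, a change of -0.40 (SE 0.10, adjusted p = 0.0069). For JUN the adjusted p was 0.051 without siB DMSO replicate 2 and 0.17 with all 4 groups in the fit. The genes that fell were thus the ones with the highest CPM in DMSO, and the genes that rose were the ones with the lowest.

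JUNB and FOSL1 did not pass in siB cells. JUNB was at 65.9, 93.3 and 89.1 CPM and then 76.9, 73.9 and 76.3 CPM, with a change of -0.11 and an interval from -0.43 to 0.20. FOSL1 was at 103, 115 and 125 CPM and then 82.6, 137 and 146 CPM, with a change of 0.05 and an interval from -0.40 to 0.49. Both intervals lie within a 2-fold change. HOOK2, which shares exon bases with JUNB, was lower in siB AAI (16.0 ± 1.49 CPM) than in siB DMSO (30.7 ± 1.31 CPM, adjusted p = 0.00045).

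**Figure D3:**
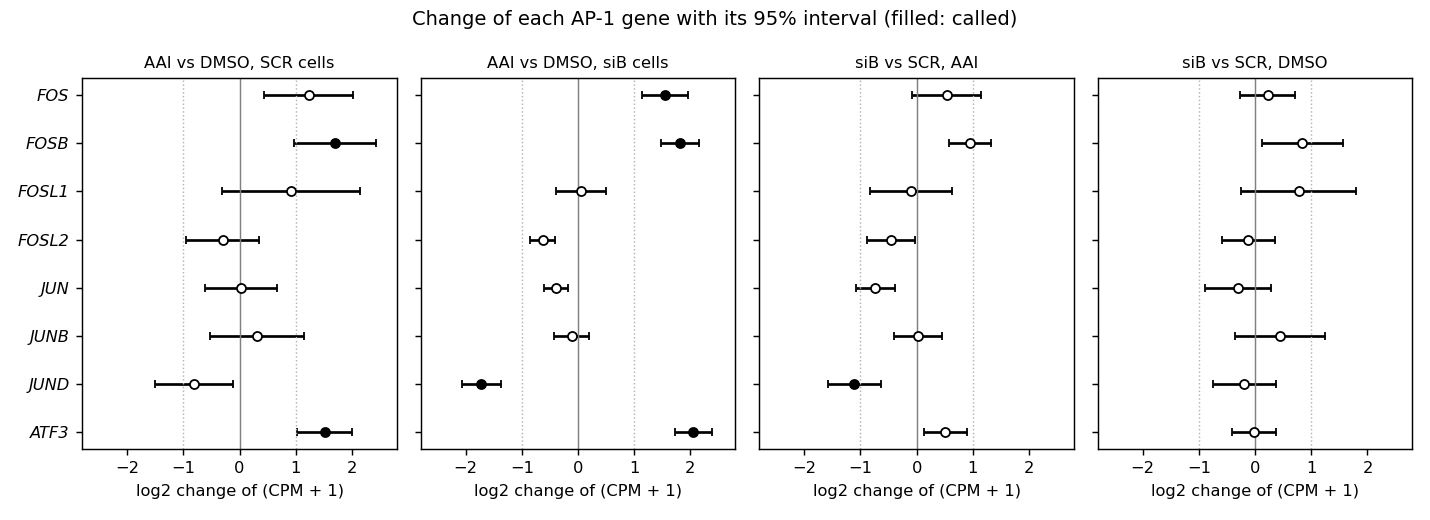
Log2 change of CPM + 1 for each gene in the 4 pairwise comparisons, with 95% intervals. Filled points were called, and dotted lines mark 2-fold. In siB cells ATF3, FOSB and FOS lie to the right and JUND to the left, while no point is filled for siB against SCR in DMSO.

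The third question was what POLR2A knockdown did in the presence of AAI. The JUND level was lower in siB AAI than in SCR AAI, and FOSB was higher, while JUNB and FOSL1 overlapped between the groups. Of the 8 genes, 0 were called raised and 1 lowered, against 3.04% and 0.629% of all 14946 genes tested. At any fold, 3 genes (FOSB, JUN and JUND) had an adjusted p under 0.05, as did 9.28% of all genes. With 1 library left out, the count among the 8 was between 1 (without SCR AAI replicate 3) and 6 (without SCR AAI replicate 1). Over all genes, 3088 and 4195 had an unadjusted p under 0.05 in those fits, against 3814 with all libraries. All-gene counts at an adjusted p are not given for them. FOSB, JUN, JUND and ATF3 did not overlap between the groups, nor did 30.8% of all genes. This comparison shares the SCR AAI libraries with the first and the siB AAI libraries with the second.

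JUND averaged 146 ± 44.8 CPM with SCR and 66.1 ± 13.1 CPM with siB, a log2 change of -1.10 (SE 0.22, adjusted p = 0.010). The siB value was 0.469, 0.401 and 0.521 of the SCR value in the same-numbered library. The call was lost without SCR AAI replicate 2 (-0.87, under the fold limit), SCR AAI replicate 3 (adjusted p = 0.059) or siB AAI replicate 1 (-0.95, under the fold limit), and the count of called AP-1 genes was then 0 in the former 2 cases. JUN averaged 301 ± 45.1 CPM with SCR and 179 ± 7.74 CPM with siB, a change of -0.73 (SE 0.16, adjusted p = 0.015). Its adjusted p was 0.077 without SCR AAI replicate 3, 0.050 to 0.056 without any 1 of the 3 siB AAI libraries and 0.054 with all 4 groups in the fit, at changes from -0.77 to -0.63. Both JUN genes were lower in every siB AAI library than in any SCR AAI library.

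FOSB averaged 28.7 ± 2.02 CPM with SCR and 56.6 ± 7.26 CPM with siB, a log2 change of 0.95 (SE 0.17, adjusted p = 0.0060), just under the fold limit. Without siB AAI replicate 1 it was called, at 1.06. ATF3 averaged 70.8 ± 8.75 CPM with SCR and 102 ± 18.4 CPM with siB, a change of 0.51 (SE 0.18, adjusted p = 0.088). The 2 groups did not overlap for ATF3, and since same-numbered libraries deviated together here too, the block gave an adjusted p of 0.0034. FOS (change 0.53, adjusted p = 0.26) and FOSL2 (-0.45, adjusted p = 0.17) passed with the block as well (adjusted p = 0.012 and 0.0084), all 3 under the fold limit. For FOS, the ratio of siB to SCR ran from 1.001 to 2.54 between same-numbered libraries. The blocked p-values here rest largely on a variance shared over genes, with moderated SEs of 0.14 to 0.18 for all 8 genes. They do not measure the spread of each gene by itself. With the block, 6 of the 8 genes had an adjusted p under 0.05. The count over all genes at that threshold is not given here, so the 6 cannot be set against it. At an unadjusted p under 0.05, 5846 of all 14946 genes passed with the block and 3814 without it.

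The fourth comparison asked whether knockdown alone moved AP-1 genes. In DMSO, 0 of the 8 genes were called, and limma called 0.0% of the 13606 genes tested. POLR2A, the siRNA target, was not called here either, though its groups did not overlap (-1.015, SE 0.13, unadjusted p = 0.00015, adjusted p = 0.51). The lack of calls therefore does not show that knockdown alone left AP-1 genes unchanged. At an unadjusted p under 0.05, 644 of the 13606 genes passed, among them FOSB (unadjusted p = 0.028). That is fewer than this threshold passes on average when no gene changes. FOSB averaged 8.49 ± 3.06 CPM with SCR and 15.4 ± 1.92 CPM with siB, with no overlap and a change of 0.84 (SE 0.30, adjusted p = 0.9998). FOSL1 also did not overlap (74.4 ± 37.3 and 115 ± 10.9 CPM, change 0.78, SE 0.43, and 0.25 without SCR DMSO replicate 1), so 2 of 8 genes were free of overlap, against 11.9% of all genes. ATF3 was the closest to no difference, at 24.0 ± 1.31 CPM and 23.7 ± 1.68 CPM, with an interval from -0.41 to 0.37. JUND differed by -0.19, with an interval from -0.76 to 0.37.

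The interaction asked directly whether the AAI change differed between siB and SCR cells. It was tested over all 4 groups at an adjusted p under 0.05 with no fold limit. None of the 8 genes passed, against 1.61% of 15325 genes, so a difference in the AAI response of any AP-1 gene was not shown. The largest estimates were for JUND (-0.91, SE 0.36, unadjusted p = 0.025, adjusted p = 0.28) and FOSL1 (-0.87, SE 0.64, adjusted p = 0.65, and -0.35 without SCR DMSO replicate 1). ATF3 had 0.54 (SE 0.23, unadjusted p = 0.042, adjusted p = 0.35), and FOSB only 0.11 (SE 0.34). Without SCR DMSO replicate 2, JUND passed (-1.15, adjusted p = 0.043). Over all genes, 498 then passed with a positive and 512 with a negative estimate, against 223 and 24 with all libraries.

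SCR DMSO replicate 2 was the deepest library and held the highest value of its group for 6 of the 8 genes, FOS, FOSB, FOSL2, JUN, JUNB and JUND. JUNB there was 99.5 CPM, against 50.9 and 42.7 CPM in the other SCR DMSO libraries. Its part in the wide intervals of the SCR comparison was not tested further than by leaving it out. Without it, the AAI comparison in SCR cells called 3 AP-1 genes raised, FOS besides FOSB and ATF3. Calls over all 14228 genes also grew, from 1100 raised and 389 lowered to 1235 and 749.

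The balance among the JUN genes was compared through their summed CPM. JUND made up 39.0% to 44.7% of the JUN, JUNB and JUND sum in the SCR DMSO libraries and 39.0% to 42.4% in siB DMSO. The share was 24.3% to 33.7% in SCR AAI and 17.5% to 23.8% in siB AAI, so every AAI library was below every DMSO library. JUN held 41.4% to 51.8% of the sum in DMSO and 51.8% to 65.5% in AAI. With DMSO, the sum itself was 624 ± 208 CPM for SCR and 538 ± 51.2 CPM for siB. With AAI, it was 523 ± 61.7 CPM for SCR and 321 ± 17.1 CPM for siB. Only in siB AAI did it lie below all libraries of the other 3 groups.

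Among the FOS genes, FOSL2 held 72.7% to 89.6% of the summed CPM of FOS, FOSB, FOSL1 and FOSL2 in SCR DMSO and 61.6% to 66.9% in SCR AAI. With siB its share was 70.2% to 72.9% without and 51.3% to 57.3% with AAI. FOSB held 1.33% to 2.39% in SCR DMSO and 13.7% to 14.3% in siB AAI. The sum of the FOS genes overlapped between the groups, at 455 ± 109 and 478 ± 140.4 CPM for SCR without and with AAI, and at 467 ± 17.3 and 406 ± 59.2 CPM for siB. The share of FOSL2 thus did not overlap between DMSO and AAI with either siRNA, while the sum of the FOS genes did. The ratio of ATF3 to JUND in CPM was 0.0700 to 0.127 in the 6 DMSO libraries, 0.310 to 0.690 in SCR AAI and 1.06 to 2.29 in siB AAI, with no overlap between these 3 sets. This is no further result, since both genes already lay apart in opposite directions. They did so between DMSO and AAI with either siRNA, and between siB AAI and SCR AAI. Being in CPM, the ratio takes no account of transcript length.

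**Figure D4:**
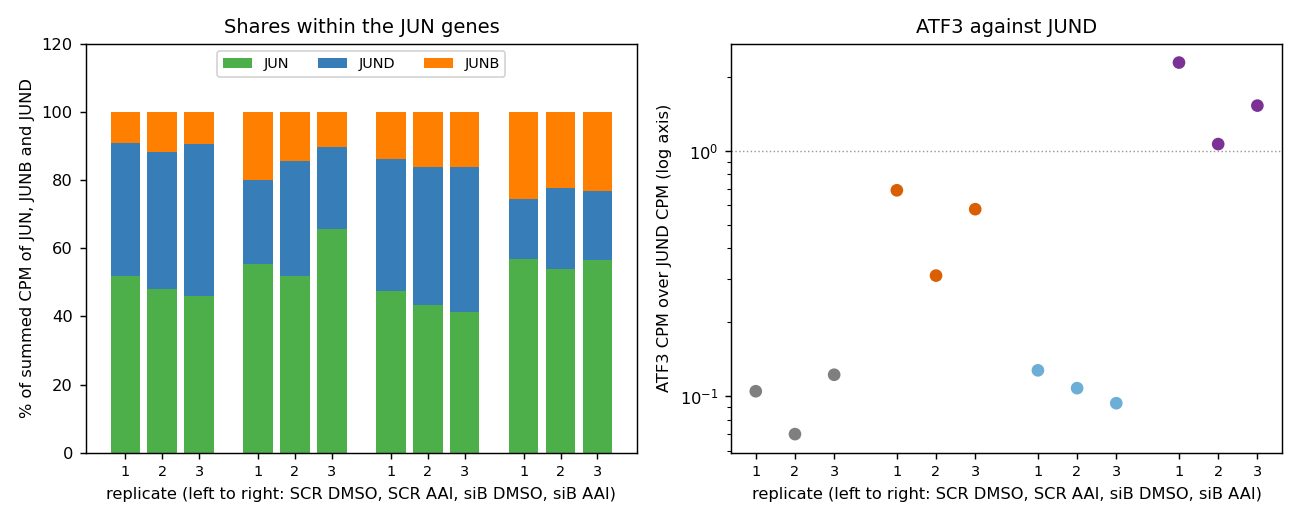
Left, the share of JUN, JUND and JUNB in their summed CPM for each library, in percent. Right, the ratio of ATF3 to JUND CPM (log axis, dotted line at 1), which is at most 0.127 in DMSO and above 1 in each siB AAI library.

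Genes that work with or upstream of AP-1 were described by lists chosen by known role. Of 15 dimer partners and relatives, 12 were tested in SCR cells, with 1 raised and 0 lowered by AAI, and 13 in siB cells, with 1 raised and 2 lowered (medians 0.17 and -0.05, against 0.18 and 0.10 over all genes). The raised shares were 8.33% and 7.69%, against 7.73% and 13.9% of all genes, and the lowered share in siB cells 15.4%, against 5.79%. MAFF, a small MAF protein, rose in SCR cells from 33.6 ± 11.2 to 75.8 ± 4.02 CPM (1.21, SE 0.29, adjusted p = 0.032) and was 62.3 ± 2.83 and 110 ± 11.2 CPM in siB DMSO and siB AAI (0.81, adjusted p = 0.00034, under the fold limit). JDP2, a repressor that dimerises with JUN proteins, fell in siB cells from 19.8 ± 1.41 to 5.50 ± 0.771 CPM (-1.68, SE 0.16, adjusted p = 3.7e-05), and its change in SCR cells was -0.78 (adjusted p = 0.15). JDP2 was also the only gene of this list called between siB AAI and SCR AAI (-1.25, SE 0.20, adjusted p = 0.0044), in the same direction as JUND. MAF fell in siB cells from 42.3 ± 2.76 to 12.5 ± 3.08 CPM (-1.70, SE 0.18, adjusted p = 6.0e-05), and its change in SCR cells was -0.91 (adjusted p = 0.18). The calls of JDP2 and MAF held under all 15 alternatives run. The MAFF call was lost without any 1 of the SCR libraries other than SCR DMSO replicate 2, with adjusted p up to 0.12, and with median-ratio scaling (adjusted p = 0.10).

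Of 23 kinases and factors upstream of AP-1 genes, 22 were measured, and none was called raised. Over all genes tested, 7.73% were called raised for AAI in SCR cells, 13.9% for AAI in siB cells and 3.04% for siB against SCR in AAI. The lowered shares over all genes were 2.73%, 5.79% and 0.629%. MAP3K5, an upstream kinase of the JNK and p38 pathways, fell by AAI in siB cells (13.1 ± 1.99 to 5.87 ± 1.25 CPM, change -1.04, SE 0.19, adjusted p = 0.0016) and was the only one called in any pairwise comparison. This was 4.55% of the 22 genes, against 5.79% of all genes. In SCR cells the MAP3K5 change was -0.55 (adjusted p = 0.29). Without siB DMSO replicate 1 or siB AAI replicate 1 its change was -0.93 or -0.91. Of 17 factors of AU-rich transcript decay, 0 were called in the 4 pairwise comparisons, against the shares of all genes given above. Their medians for AAI were 0.16 in SCR and 0.03 in siB cells, against 0.18 and 0.10 over all genes. For siB against SCR in AAI the median of this list was -0.24, against 0.0023 over all genes, with 5 genes higher and 12 lower. ZFP36L2, which binds AU-rich elements and promotes decay of the RNA, was the only one of them with an interaction past the threshold (-1.13, SE 0.22, adjusted p = 0.027), and is named after its value was seen. It went from 43.0 ± 7.27 to 81.1 ± 7.48 CPM with AAI in SCR cells (change 0.91, adjusted p = 0.034, under the fold limit). In siB cells it went from 59.2 ± 1.18 to 50.9 ± 4.85 CPM, a change that did not pass (-0.22, adjusted p = 0.14). This 1 gene was 5.88% of the 17, against 1.61% of all genes with an interaction past the threshold. Of 10 genes for degradation or repression of JUN and FOS proteins, 9 were measured. TRIM32, a ubiquitin ligase, fell by AAI in siB cells (31.9 ± 0.940 to 15.1 ± 1.61 CPM, change -1.04, SE 0.14, adjusted p = 0.00023), and no other was called. This was 11.1% of the 9 genes, against 5.79% of all genes. In SCR cells the TRIM32 change was -0.42 (adjusted p = 0.25). Without siB AAI replicate 2 its change was -0.95.

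Of 26 genes long known as AP-1 targets, 20 were tested in SCR cells and 21 in siB cells, with 1 and 2 raised by AAI and none lowered. These raised shares of 5% and 9.52% lay below those of all genes, 7.73% and 13.9%. Of all genes, 2.73% and 5.79% were lowered. The medians were 0.38 and 0.15, against 0.18 and 0.10 over all genes. CXCL8, the chemokine interleukin 8, rose in SCR cells from 116 ± 19.5 to 259 ± 23.0 CPM (1.16, SE 0.21, adjusted p = 0.0097). In siB cells it was 119 ± 7.01 and 208 ± 11.9 CPM, a change of 0.80 (adjusted p = 0.00017) under the fold limit. HBEGF, a ligand of the EGF receptor, rose in siB cells from 31.3 ± 2.02 to 139 ± 39.7 CPM (2.08, SE 0.18, adjusted p = 2.2e-05), while in SCR cells it was 58.8 ± 22.2 and 77.4 ± 36.0 CPM. EREG, another such ligand, rose in siB cells (48.2 ± 9.11 to 116 ± 53.9 CPM, 1.13, SE 0.34, adjusted p = 0.019), with overlapping groups. Its change in SCR cells was larger but did not pass (26.1 ± 19.4 to 129 ± 72.6 CPM, 2.29, SE 0.63, adjusted p = 0.054). The interaction did not pass for CXCL8 (adjusted p = 0.52), HBEGF (0.12) or EREG (0.64). The CXCL8 call was lost without SCR DMSO replicate 3 (adjusted p = 0.052) or SCR AAI replicate 3 (0.060), and the EREG call without siB DMSO replicate 3 (adjusted p = 0.052), siB AAI replicate 2 (0.077) or siB AAI replicate 3 (0.0871). With median-ratio scaling CXCL8 was at 0.96 and no longer called, and with all 4 groups in the fit EREG was not called (adjusted p = 0.16), while HBEGF was called under all 15 alternatives. Between siB and SCR in AAI, 0 of the 21 targets tested were called, against 3.04% raised and 0.629% lowered over all genes.

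Finally, the genes whose pattern over the 12 libraries was most like those of FOSB and ATF3, the AP-1 genes with the widest range of group means, were listed among 11573 genes with a mean of at least 5 CPM. Pearson's r on log2(CPM + 1) served as the measure, as a description, since the 12 libraries fall into 4 groups and share their depth and scaling. For FOSB, SLC25A33 (r = 0.99), TJAP1 (0.98), TEX261 (0.96) and MAFF (0.96) were among them. SLC25A33, a mitochondrial carrier of pyrimidine nucleotides, averaged 15.4 ± 3.5 and 28.4 ± 3.28 CPM for SCR without and with AAI, and 20.3 ± 0.488 and 37.7 ± 2.48 CPM for siB. For ATF3 they were SERHL2 (r = 0.998), BICD1P1 (0.99), CHD5 (0.99), PSPN (0.99) and RP4-740C4.5 (0.99). CHD5, a chromatin remodeller mostly of neurons, averaged 0.210 ± 0.102 CPM (SCR) and 0.114 ± 0.0459 CPM (siB) with DMSO, and 43.96 ± 11.7 CPM (SCR) and 122 ± 28.9 CPM (siB) with AAI. The interaction passed for CHD5 (1.57, SE 0.32, adjusted p = 0.031) and for none of the other genes named here as most alike, with adjusted p of 0.11 or more. The genes listed for ATF3 all had positive estimates, from 0.53 (SERHL2) to 1.57 (CHD5), as had ATF3 itself (0.54). They were picked for likeness to ATF3 in these same libraries, and CHD5 reached 1 CPM only with AAI. Its passing is therefore not independent evidence of a different AAI response. With CHD5 near the limit of 3 reads in DMSO, its interaction is close to the difference between siB AAI and SCR AAI.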

How the data were processed

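Poly-A RNA sequencing libraries from 12 samples were analysed. Samples were grouped by their titles, since the labels give the treatment as DMSO for all of them. As described in the study's methods, paired-end reads had been mapped to hg38 and summed per gene by the authors, and the aligner and strand setting are not given in the sources used here. The authors deposited log10 values, log10(CPM + 1). These were converted to CPM, and whole reads were recovered for 100% of values tested (within 0.1 read). The 28 genes whose names had become dates were tested but not named.

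Differences were tested with limma 3.58.1 in R 4.3.3, using log2(CPM + 1) and a mean-variance trend. Every pairwise comparison had a fit of its own, over genes that reached 1 CPM in 3 or more of its libraries. All 8 AP-1 genes had at least 1 CPM in every library. Adjusted p-values follow Benjamini and Hochberg over all genes tested. A call needed an adjusted p below 0.05 together with a 2-fold change, and the interaction, over all 4 groups, only the former. SE is limma's moderated standard error, and intervals are 95%. On data simulated from group means and depths of these libraries, the AAI comparison in SCR cells recovered 88.0% of genes changed 2-fold, over 13561 genes. The interaction recovered 43.0%, over 13836 genes. Recovery was counted at an adjusted p under 0.05 alone, and all genes had 1 common dispersion, with no outlying library and no pairing. In SCR DMSO the SD of the AP-1 genes ran from 5.47% (ATF3) to 50.2% (FOSL1) of the mean. The recovered shares thus may not hold for the AP-1 genes.

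Replicates were not copies of a library (chi-square per degree of freedom at least 4.23). Same-numbered libraries deviated together over 15325 genes for AAI in SCR cells (r = 0.422, 0.473 and 0.338) and for siB against SCR in AAI (0.614, 0.318 and 0.292). This was taken as pairing, so blocked values are given there. Annotation came from GENCODE release 44 (hg38) and promoter windows from RefSeq. The AP-1 genes, gene lists, named genes and alternatives were chosen with earlier results of these data known. Named genes were the AP-1 genes, POLR2A, their annotated neighbours, up to 4 called genes with the largest change per list, and the 5 genes most correlated with FOSB and with ATF3. Some items picked by these rules are not reported here.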

Additional observations from a re-analysis of the deposited data

Results flagged for a closer look

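Among the genes described, the AAI response differed between siB and SCR cells by the interaction test for ZFP36L2 (-1.13, SE 0.22, limma adjusted p = 0.027) and CHD5 (1.57, SE 0.32, limma adjusted p = 0.031). ZFP36L2 was higher with AAI in 3 of 3 SCR libraries and lower in 3 of 3 siB libraries than in any DMSO library of the same siRNA. Over all genes, 33.8% and 60.8% did not overlap in these comparisons. A fall in siB cells was not shown, with a change of -0.22 and an interval from -0.47 to 0.04 (limma adjusted p = 0.14). The direction of the interaction held under all 20 alternatives run, with estimates from -1.23 to -0.99. The adjusted p ran from 0.016 to 0.17, and 9 of the 20 kept the call. Without SCR DMSO replicate 1, SCR AAI replicate 2 or 3, any 1 of the 3 siB DMSO libraries, or siB AAI replicate 2 or 3, the adjusted p was above 0.05, as it was with the pseudocount of 0.1 CPM, with a mean of 5 CPM asked and with voom on recovered reads. CHD5, chosen for its likeness to ATF3 in these libraries, was higher with AAI in 3 of 3 libraries with either siRNA, with a higher mean in siB AAI than in SCR AAI. In DMSO it averaged 0.210 CPM (SCR) and 0.114 CPM (siB), near the limit of 3 reads. That is below 1 CPM, so CHD5 was tested only through its AAI libraries. Both its choice and its test used these same libraries, so its passing is not independent evidence. On the log2(CPM + 1) scale its interaction is close to the difference between siB AAI and SCR AAI, and fold changes from so low a level are uncertain. Its estimates ran from 1.40 to 2.22 and its adjusted p from 0.015 to 0.36 over the 20 alternatives, of which 8 kept the call. The call was lost under the same 3 settings and without any 1 library other than SCR DMSO replicate 2, SCR AAI replicate 1 and siB AAI replicate 2. The cause of either difference was not tested.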

How the results depend on the processing

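The count of called AP-1 genes for AAI in SCR cells was 2, and 1 to 3 when a library was left out. Over all genes, 757 to 1235 were then called raised and 118 to 749 lowered. The counts that follow are of AP-1 genes again. For AAI in siB cells it was 4 under all alternatives but the one without a fold limit (6). For siB against SCR in AAI it was 1, with 3 when no fold limit was asked and 0 to 1 when a library was left out. In DMSO it was 0 throughout, and for the interaction 0 to 1 when a library was left out (JUND without SCR DMSO replicate 2). The alternatives were another pseudocount, other filters, median-ratio scaling, CPM without the abundant transcript AC010970.2 (0.189% to 10.6% of a library), all 4 groups in the fit, the replicate block, voom on recovered reads and no trend. Among them, FOS in SCR cells was called with all 4 groups in the fit and without AC010970.2 (adjusted p = 0.0067 and 0.042) besides the block.

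Changes near 0 turned sign, none of them called. With median-ratio scaling, JUN by AAI in SCR cells was -0.17 and FOSL1 by AAI in siB cells -0.067. With libraries left out, JUN by AAI in SCR cells ran from -0.20 to 0.27 and FOSL1 by AAI in siB cells from -0.10 to 0.30. For siB against SCR in AAI, FOSL1 ran from -0.57 to 0.16 and JUNB from -0.21 to 0.17. In DMSO, FOSL2 ran from -0.26 to 0.073, JUND from -0.33 to 0.044 and ATF3 from -0.067 to 0.031, and the interaction of FOSB ran from -0.069 to 0.41. The causes were not tested.

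Same-numbered libraries did not deviate together in every pair for AAI in siB cells (r = 0.21, 0.026 and 0.20) or for siB against SCR in DMSO (0.73, 0.59 and -0.19). With the replicate block the calls were 4 and 0 there, as without it. The block brought the call of FOS in SCR cells, for 3 in all, and in the other comparisons it changed no call, with JUND called in AAI and an interaction of JUND at an adjusted p of 0.058. FOS, at 52 to 272 reads per library, had the lowest counts. FOS was not tested in DMSO when a mean of 5 CPM was asked. Over all genes, asking for a mean of 5 CPM left 474 raised and 250 lowered for AAI in SCR cells, against 1100 and 389, with 882 and 713 in siB cells, against 2080 and 864, and 134 and 82 for siB against SCR in AAI, against 454 and 94. The last were 144 and 44 without SCR AAI replicate 3. For the interaction, 223 genes passed with a positive and 24 with a negative estimate, against 0 when a mean of 5 CPM was asked or voom was used, and 498 and 512 without SCR DMSO replicate 2.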
